A study of Danio rerio with 39 samples.

Results

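Genes of the actin cytoskeleton were followed here in zebrafish embryos exposed to TCDD (dioxin). They were calponin 2, the tropomyosin gene tpm3, and the accessory subunits of the Arp2/3 complex. The members were taken by name, as every probe annotated zgc:65794 (calponin 2, cnn2), tpm3, a calponin cnn symbol or an arpc symbol, which gave 8 genes of the 9327 named on the array and 11 of its 21495 probes. The choice of these genes was based on their day 5 difference and on how they varied together within each treatment, so both are given below as description. No probe carried a calponin cnn symbol, so calponin 2 was represented by zgc:65794 alone, and 9 probes covered the 6 Arp2/3 genes arpc1a, arpc1b, arpc4, arpc5a, arpc5b and arpc5l, of which arpc1a, arpc5a and arpc5b had 2 probes each.

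TCDD embryos of the AB* strain received 1 ng/mL TCDD for 1 h from 4 to 5 h post-fertilization, and vehicle control embryos received the solvent dimethyl sulfoxide (DMSO) alone. RNA was collected on days 1, 2, 3, 4 and 5 in 4 separate experiments, giving 4 arrays per group except TCDD on day 2, where experiment 1 was not analysed here and n was 3. Each array held RNA of several pooled whole embryos, labelled in red, against a common green reference from Zf4 cells, a single fibroblast line from zebrafish embryos. Every value is therefore a log2 ratio of embryo to Zf4 RNA, and since whole embryos were used, fewer cells of a type and less RNA per cell cannot be told apart.

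Actin filaments are built from actin monomers and carry the shape changes, crawling and contraction of cells. The Arp2/3 complex consists of the actin-related proteins Arp2 and Arp3 and the ARPC subunits, and it starts new filaments as branches on the side of existing filaments, which gives the meshwork at the leading edge of a moving cell. Tropomyosins are coiled-coil proteins that lie along filaments and control which other proteins reach them, while calponins bind filaments and tropomyosin and, in smooth muscle, dampen the activity of myosin. Calponin 2 is the form found widely outside smooth muscle, in epithelia, fibroblasts and white blood cells of mammals.

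All 11 probes were well above background in both channels on all 39 arrays, none was saturated and none had an outlier spot left out. Each array had 16329 to 18624 embryo signals well above background. The exposure was checked on cyp1a, a cytochrome P450 induced by dioxin, whose log2 ratio on day 5 was 9.72, 9.22, 10.25 and 9.48 in the TCDD arrays of experiments 1 to 4, against 3.76, 3.87, 4.16 and 4.02 in the vehicle control arrays. Most markers of whole-embryo tissues were present, with 0 of 20 skeletal muscle probes and 0 of 15 epidermis probes at background throughout the day 5 groups. In each day 5 group 1 of 5 endothelium probes and 1 of 6 red blood cell probes were at background throughout. The same held for 1 of 7 cardiac probes under TCDD and 1 of 9 leukocyte probes in the control.

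Calponin 2 (zgc:65794, probe A_15_P120770) was lowest in vehicle control embryos of day 5, and every TCDD array of that day was above them. In TCDD embryos its mean log2 ratio was -1.18 ± 0.08, -1.40 ± 0.06, -1.55 ± 0.11, -1.46 ± 0.20 and -1.13 ± 0.43 over days 1 to 5 (SD, n = 4, but 3 on day 2). In vehicle control embryos it was -1.11 ± 0.08, -1.35 ± 0.09, -1.41 ± 0.06, -1.55 ± 0.08 and -1.95 ± 0.06 on days 1 to 5 (SD, n = 4). Ordered by mean level, the 10 groups ran from vehicle control day 1 down to vehicle control day 5, with TCDD day 5 in place 2, and of all neighbours in that order only the last pair, vehicle control day 4 and vehicle control day 5, did not overlap. On day 5 the TCDD arrays of experiments 1 to 4 had -0.92, -1.70, -1.22 and -0.69, against -1.97, -1.87, -2.0 and -1.97 in the vehicle control arrays. All 4 TCDD arrays lay above all 4 vehicle control arrays, but the TCDD array of experiment 2 lay near them. The fitted log2 fold change was 0.82 ± 0.12 (SE), a 1.76-fold difference, and it was 0.64 among the 5 arrays scanned on one day and 1.01 among the 3 scanned on another. The first of these days held TCDD experiments 1 and 2 with controls 1 to 3, the other TCDD experiments 3 and 4 with control 4 alone. Scan day and experiment can therefore not be told apart.

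The tropomyosin gene tpm3 (probe A_15_P105082) had a similar course. Its mean log2 ratio in TCDD embryos was 0.24 ± 0.09, -0.03 ± 0.08, -0.07 ± 0.07, -0.02 ± 0.25 and 0.15 ± 0.31 on days 1 to 5 (SD). In vehicle control embryos it was 0.41 ± 0.16, 0.05 ± 0.05, -0.08 ± 0.11, -0.15 ± 0.05 and -0.34 ± 0.03. Again vehicle control day 5 was the lowest of the 10 groups and the only one that did not overlap its neighbour in the order. On day 5 the TCDD arrays of experiments 1 to 4 had 0.30, -0.28, 0.14 and 0.42, against -0.35, -0.31, -0.37 and -0.33 in the vehicle control arrays, so the groups did not overlap, although the TCDD array of experiment 2 was only just above the controls. The log2 fold change on day 5 was 0.49 ± 0.11 (SE), or 1.40-fold, with 0.36 and 0.62 on the 2 scan days that held both groups. On day 4, where the means differed little, the TCDD arrays were already spread from -0.35 in experiment 2 to 0.22 in experiment 1, while the vehicle control arrays lay between -0.22 and -0.11.

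The Arp2/3 subunit arpc4 (probe A_15_P102017), which helps form the core of the complex, had a later and steeper course. Its mean log2 ratio in TCDD embryos was -0.46 ± 0.09, -0.43 ± 0.04, -0.40 ± 0.06, -0.74 ± 0.18 and -0.99 ± 0.21 on days 1 to 5 (SD). In vehicle control embryos it was -0.47 ± 0.09, -0.48 ± 0.06, -0.44 ± 0.02, -0.89 ± 0.04 and -1.35 ± 0.10. The 6 groups of days 1 to 3 stood together at the top of the order and every neighbour in it overlapped. On day 5 the TCDD arrays had -1.05, -1.25, -0.78 and -0.86 in experiments 1 to 4, against -1.43, -1.40, -1.20 and -1.35 in the vehicle control arrays, an overlap made by experiment 2 of TCDD and experiment 3 of the control. The log2 fold change was 0.36 ± 0.08 (SE), or 1.28-fold, and it was 0.19 and 0.53 on the 2 scan days.

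**Figure D1:**
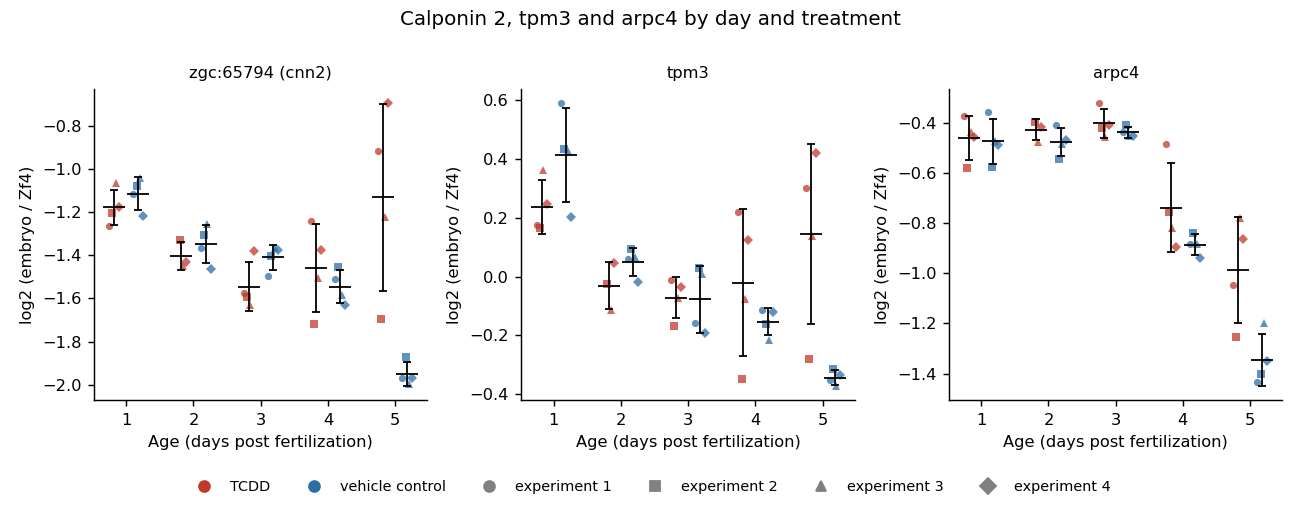
Log2 ratio of embryo to Zf4 RNA (vertical axis) of zgc:65794, tpm3 and arpc4 against age in days (horizontal axis). Each point is 1 array with its shape giving the experiment, TCDD in red at left and vehicle control in blue at right of each day, and black bars give the mean ± SD. On day 5 the vehicle control arrays of zgc:65794 lie between -2.0 and -1.87 while the TCDD arrays spread from -1.70 to -0.69.

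The other Arp2/3 subunits differed from each other on day 5. The 2 probes of arpc1a, a subunit of the WD-repeat type, had log2 fold changes of 0.31 ± 0.08 each (SE). Probe A_15_P109500 had -0.15, -0.52, -0.34 and -0.05 in TCDD embryos of experiments 1 to 4, against -0.56, -0.56, -0.60 and -0.60 in vehicle control embryos. All TCDD arrays lay above all control arrays for both probes, by a small margin in experiment 2. Its paralog arpc1b, the next protein-coding gene on chromosome 3 of the GRCz12tu assembly, had -0.22, -0.83, -0.33 and -0.56 in TCDD embryos, against -0.83, -0.78, -0.94 and -0.81 in vehicle control embryos. The log2 fold change of arpc1b was 0.36 ± 0.11 (SE), with the groups overlapping through experiment 2 alone.

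The ARPC5 subunits, which tether the other parts of the complex, covered the whole range of the day 5 differences. For arpc5a, probe A_15_P106024 had -1.07, -1.82, -1.10 and -0.47 in TCDD embryos, against -2.04, -1.90, -1.83 and -1.88 in vehicle control embryos, a log2 fold change of 0.80 ± 0.14 (SE). The second probe of arpc5a, A_15_P108609, had -1.14, -1.63, -1.07 and -0.70 in TCDD embryos, against -1.50, -1.35, -1.68 and -1.39 in vehicle control embryos, a log2 fold change of 0.35 ± 0.14. The 2 probes name the same transcript and both were lowest in experiment 2 and highest in experiment 4 under TCDD, yet they gave sizes that differed by more than either error, and no value for the gene was made from them.

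The 2 probes of arpc5b were closer to each other. Probe A_15_P116868 had 0.19, -0.33, 0.05 and 0.49 in TCDD embryos, against -0.46, -0.46, -0.21 and -0.38 in vehicle control embryos, a log2 fold change of 0.48 ± 0.13 (SE), and the second probe gave 0.41 ± 0.13. On day 4 the first probe had 0.50 in the TCDD array of experiment 1 and -0.16, -0.06 and 0.01 in the other TCDD arrays, against 0.03, 0.02, -0.15 and -0.09 in the vehicle control arrays, so a single TCDD array stood above the rest a day earlier. For arpc5l, which is now called arpc5la, the TCDD arrays had 1.17, 1.26, 1.32 and 1.23, against 1.20, 1.23, 1.04 and 1.28 in the control arrays. These groups lay on top of each other, at a log2 fold change of 0.06 ± 0.11 (SE), the smallest among the 11 probes.

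**Figure D2:**
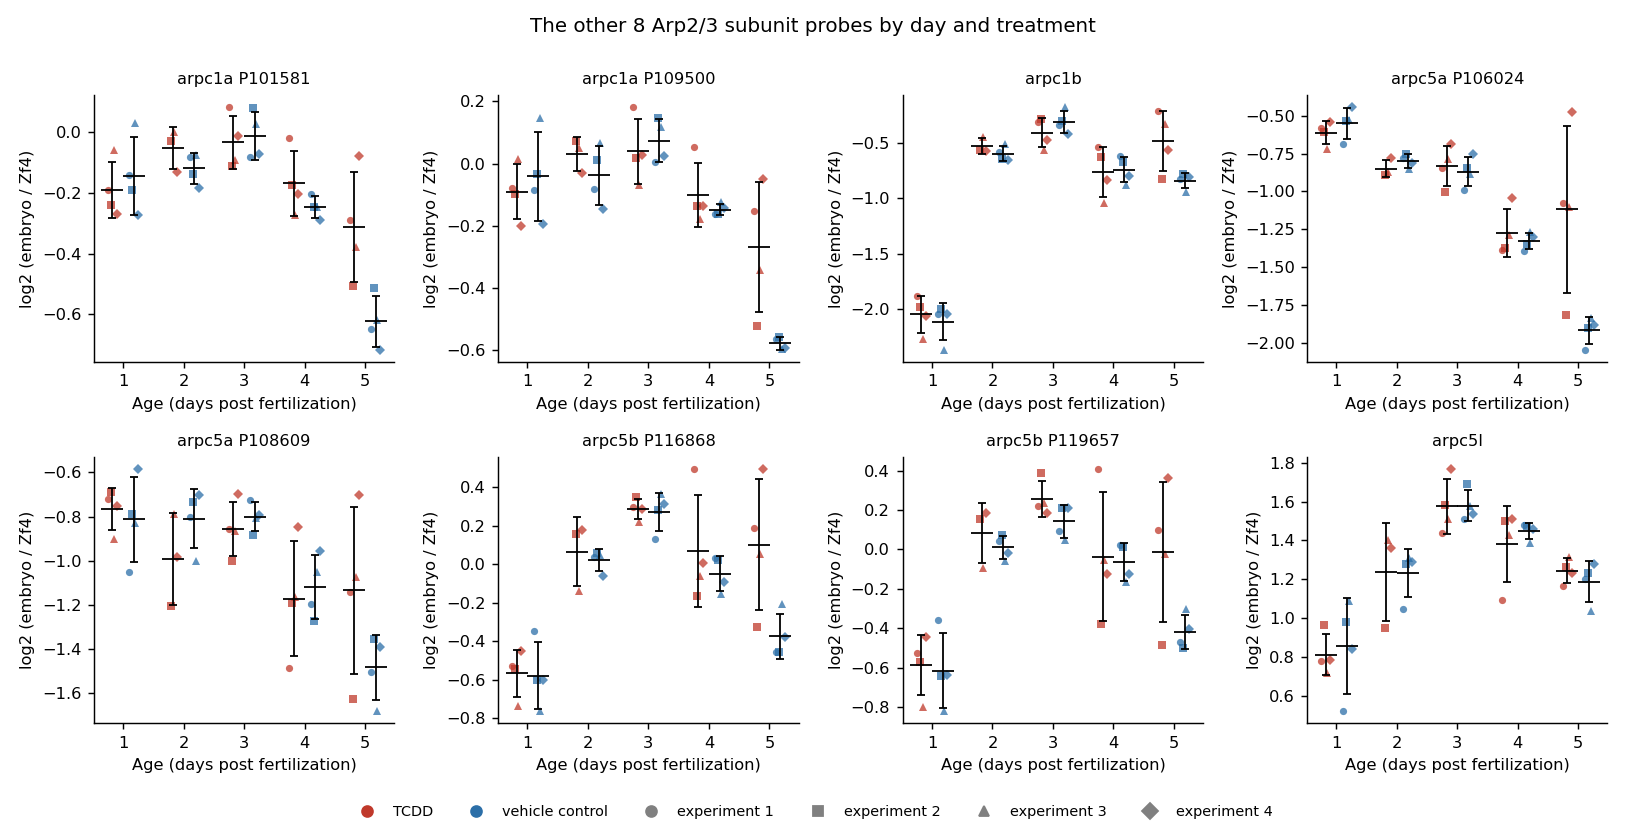
Log2 ratio of embryo to Zf4 RNA (vertical axes, each to its own scale) of the 8 remaining Arp2/3 probes against age in days (horizontal axes), with arrays, experiments, means and SD drawn as for arpc4. For both arpc1a probes, both arpc5a probes and both arpc5b probes the day 5 TCDD arrays spread upward from the control level, while for arpc5l they lie between 1.17 and 1.32, within the control range of 1.04 to 1.28 for 3 of 4 arrays.

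Over the 11 probes the median log2 fold change on day 5 was 0.36, against -0.001 over all probes, and over the 9 Arp2/3 probes it was also 0.36, with a range of 0.06 to 0.80. At an unadjusted p of 0.01 in the limma fit, 9 of the 11 probes were called higher and 0 lower on day 5, where 9.24% of all probes were called in either direction and 5.01% were called higher. The 2 probes not called were arpc5l and A_15_P108609 of arpc5a, of which A_15_P108609 was called with the experiment as a block (10 of 11 members, with 1342 of all probes higher). The TCDD and control arrays did not overlap for 5 of the 11 probes, compared with 5.49% of all probes with TCDD wholly above. Since the genes were chosen for this day, these counts describe them and are no evidence about them. Fitted to the day 5 arrays alone, the count was 1 of 11 (zgc:65794), with 608 of all probes called higher in place of 1077, and in the embryo channel without the Zf4 reference it was 5, with 938 of all probes.

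The day 5 TCDD arrays were not alike. The range over the 4 TCDD arrays was larger than that over the 4 control arrays for 10 of the 11 probes, where this held for 64.7% of all probes. For zgc:65794 the range was 1.00 under TCDD and 0.13 in the control, and for tpm3 it was 0.70 under TCDD and 0.06 in the control. The SE values and calls given for day 5 use a spread pooled over all 10 groups, so they do not show this wider spread. The TCDD array of experiment 2 was the lowest of the 4 for 10 of the 11 probes, all but arpc5l. Over all probes that array was the lowest in 25.1%, and among all probes called higher on day 5 it was the lowest in 68.3%. The highest array was that of experiment 4 for 8 of the 11 probes. Against the control array of the same experiment, the median difference over the 11 probes was 0.57, 0.03, 0.42 and 0.69 in experiments 1 to 4, while over all probes it lay between -0.04 and 0.01. In experiment 2 the largest of the 11 differences was 0.17, that of zgc:65794, and the lowest was -0.27, that of the arpc5a probe A_15_P108609. The cyp1a ratio of that TCDD array, 9.22, was the lowest of the 4 but far above every control array.

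Leaving out experiment 2 gave log2 fold changes of 1.03 for zgc:65794, 0.64 for tpm3 and 0.43 for arpc4, and 10 of the 11 probes were called higher, as were 1022 of all probes. Leaving out experiment 4 gave 0.67, 0.40 and 0.32 for the same genes, and 4 of 11 were called higher (zgc:65794, tpm3, arpc4 and A_15_P106024 of arpc5a), as were 616 of all probes. The difference was above 0 in each such fit for all 3 genes.

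**Figure D3:**
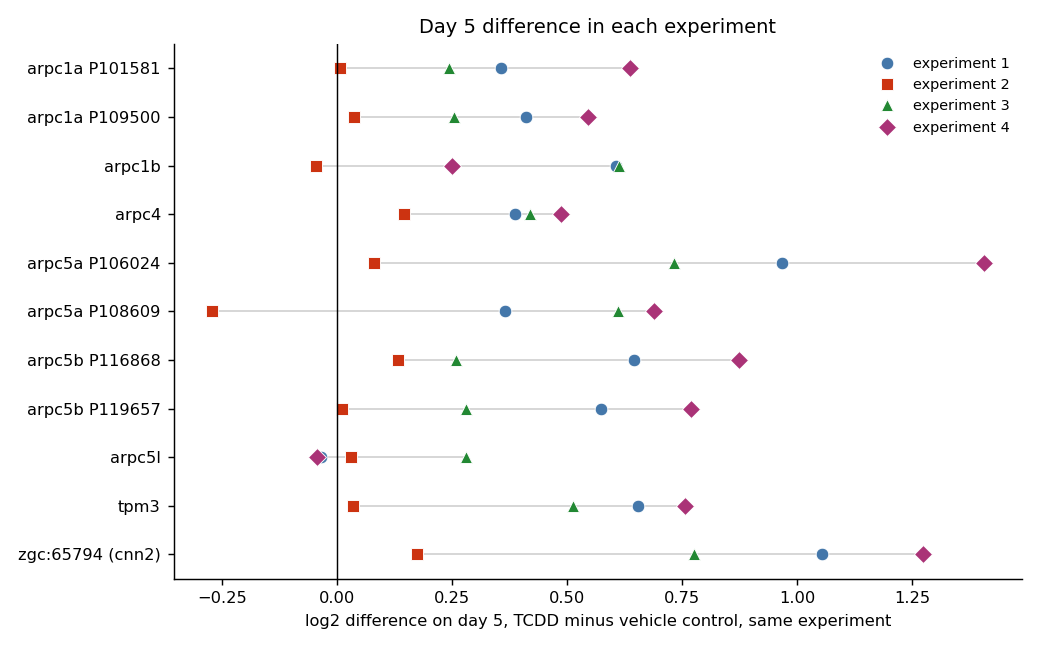
Difference of log2 ratios on day 5, TCDD minus vehicle control of the same experiment (horizontal axis), for each of the 11 probes (rows), with colour and shape giving the experiment. Experiment 2 stands at or near 0 throughout, from -0.27 to 0.17, while experiment 4 reaches 1.41 for A_15_P106024 of arpc5a and 1.27 for zgc:65794.

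Before day 5 no member passed the test, although the related Arp2/3 genes arpc2 and actr3, described below, did. On day 1, 0 of the 11 probes were called in either direction, where 0.717% of all probes were. Day 2 gave 0 of 11 as well, against 3.3% of all probes. Day 3 gave 0 of 11, against 6.52% of all probes, and day 4 gave 0 of 11, against 3.38%. Over these 4 days limma gave 0 of the 11 probes an unadjusted p under 0.05 on any day. Of all probes, 645 of 21493, 1830 of 21493, 3277 of 21492 and 1863 of 21494 were under 0.05 on days 1 to 4. Whether the members differed from all probes in this was not tested. An ordinary analysis of variance without moderation also called 0 of the 11 probes. The median log2 fold change of the 9 Arp2/3 probes was 0.01, 0.05, -0.004 and 0.05 on days 1 to 4. Their fold changes ranged from -0.18 to 0.15 over these days. For zgc:65794 every experiment had the TCDD array below its control on day 3, by 0.14 on average, opposite in sign to day 5. The day 3 groups overlapped, and in experiment 4 the TCDD and control arrays were nearly equal (-1.3809 and -1.3745). Differences of one sign in every experiment were also seen for arpc4 on day 4 (0.15 ± 0.08 SE, higher in 4 of 4). On day 2 they were seen for arpc4, arpc1b and A_15_P101581 of arpc1a (0.05, 0.07 and 0.07, higher in 3 of 3). None of these passed the test. An unnamed probe described as the arpc4 protein, A_15_P118217, had the other sign, at -0.22, -0.11, -0.12 and -0.04 on days 1 to 4. It was higher in 0 of 4 experiments on days 1 and 3. Another such probe, A_15_P115032, had 0.06 on day 2 and 0.01 on day 4.

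Development was read from the vehicle control arrays. The control course of calponin 2 and tpm3 entered their choice, so it is description. Over these arrays arpc4 had r of 0.88 with calponin 2. The arpc1a probes had 0.83 and 0.85, and the arpc5a probes 0.95 and 0.78. The courses of arpc4, arpc1a and arpc5a are therefore description too. Tests are given for arpc1b, arpc5b and arpc5l, whose r with calponin 2 lay between -0.44 and 0.001. With tpm3 their r was -0.68 to -0.29. Counts over the 9 probes include all of these genes. How the genes varied together within each treatment was a basis of the choice, so the tests are not fully independent of it. The day 5 control arrays were part of the TCDD comparison on which the genes were chosen, so comparisons that use them are given as description with no p, and tests are given for the steps up to day 4. As description, the differences between day 1 and day 5 had both signs among the Arp2/3 subunits, also between paralogs of the same subunit. The next counts rest on the control arrays that the genes were chosen on, and nothing is read from them. In the limma fit 5 of the 9 Arp2/3 probes were called lower on day 5 than on day 1 (23.3% of all probes) and 2 higher (19.4% of all probes). The log2 difference was -1.36 ± 0.14 (SE) for probe A_15_P106024 of arpc5a and -0.67 ± 0.14 for A_15_P108609 of the same gene. It was -0.87 ± 0.08 for arpc4, and -0.54 ± 0.08 and -0.48 ± 0.08 for the 2 probes of arpc1a.

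For the paralog arpc1b the difference between day 1 and day 5 had the opposite sign, likewise as description. Its vehicle control arrays had -0.83, -0.78, -0.94 and -0.81 on day 5, against -2.04, -2.0, -2.36 and -2.04 on day 1, groups far apart. The log2 difference was 1.27 ± 0.11 (SE), or 2.41-fold. Between day 1 and day 2 alone arpc1b rose by 1.51 ± 0.11 (adjusted p = 2.4e-12), more than over the whole course, and in TCDD embryos the same step measured 1.51. Between day 3 and day 4 it fell by 0.43 ± 0.11 (adjusted p = 0.0077).

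Between day 1 and day 2 both arpc5b probes rose as well, by 0.60 ± 0.13 and 0.63 ± 0.13 (adjusted p = 3.66e-04 and 4.32e-04), and arpc5l rose by 0.37 ± 0.11 (adjusted p = 0.00731). These 4 calls of 9 compare with 12.8% of all probes called higher. The arpc5b probes on day 5 differed from day 1 by 0.20 ± 0.13 each, given as description. As description, the difference of arpc5l over the whole course was 0.33 ± 0.11. It fell short of the threshold without experiment 1 (0.21), experiment 2 (0.36) or experiment 4 (0.30).

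From day 3 to day 4 the means of all 9 Arp2/3 probes fell in vehicle control embryos, though only part of them were called. On day 5 the means of all 9 were lower again, given as description. On day 4, 4 of the 9 were called lower than on day 3 (7.75% of all probes). They were arpc1b and, as description, arpc4 (by 0.45 ± 0.08), A_15_P101581 of arpc1a and A_15_P106024 of arpc5a. All 9 had day 4 arrays wholly below those of day 3 (9.57% of all probes). On day 5, 4 of the 9 were called lower than on day 4 (4.67% of all probes), namely both probes of arpc1a, arpc4 and A_15_P106024 of arpc5a, and 8 of the 9 did not overlap (7.7% of all probes), arpc1b being the exception. These day 5 counts rest on the control arrays that the genes were chosen on, and nothing is read from them. The day 4 to day 5 difference is set side by side for both treatments, likewise as description. It was -0.25 in TCDD and -0.46 in vehicle control embryos for arpc4, and 0.15 in TCDD and -0.59 in vehicle control embryos for A_15_P106024 of arpc5a. For zgc:65794 it was 0.33 in TCDD and -0.41 in vehicle control embryos, and for tpm3 it was 0.17 in TCDD and -0.19 in vehicle control embryos. Over the 9 Arp2/3 probes the median was 0.03 in TCDD and -0.36 in vehicle control embryos, and over all probes it was near 0 in both (-0.02 in TCDD and 0.00 in vehicle control embryos).

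Across arrays the members fell into more than one pattern. Calponin 2 and tpm3 had a Pearson r of 0.92 over the 19 TCDD arrays and 0.90 over the 20 vehicle control arrays. Taken as deviations from the mean of each day, r was 0.92 in TCDD and 0.45 in vehicle control embryos. Calponin 2 and arpc4 had r of -0.11 in TCDD and 0.88 in vehicle control embryos, and as deviations within days r was 0.51 in TCDD and -0.12 in vehicle control embryos, so the order turned round once the days were taken out. All arrays of a treatment share the course of development. Among all 55 pairs of members the median r was 0.14 in TCDD and 0.45 in vehicle control embryos, and within days it was 0.53 in TCDD and -0.07 in vehicle control embryos. These correlations are given as description.

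Pairs of probes for the same gene tracked each other, with r of 0.91 to 0.98 in TCDD and 0.90 to 0.98 in vehicle control embryos for arpc1a, arpc5a and arpc5b. Taken as deviations within days, r was 0.88 to 0.97 in TCDD and 0.40 to 0.83 in vehicle control embryos, lowest for the arpc5a pair in both. The gene arpc5l had r of -0.59 in TCDD and -0.56 in vehicle control embryos against tpm3, but 0.74 in TCDD and 0.79 in vehicle control embryos against arpc1b.

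Among the named genes above background on all arrays, those whose pattern over the 39 arrays was most like calponin 2 were tpm3 (r = 0.91), zgc:55427 (now cdc42l, 0.89), adam8, a membrane metalloprotease (now adam8a, 0.89), ptp1b, a tyrosine phosphatase (now ptpn1, 0.88), and hif1al (0.87). Those most like tpm3 were zgc:65794, ptp1b (0.89), adam8 (0.89), zgc:76963 (now cyb5b, a cytochrome b5, 0.88) and zgc:92903 (now txnb, a thioredoxin, 0.88). The genes most like arpc4 were of another kind. Proteasome subunits took 4 of the 5 places, with zgc:63709 (now psmc4, 0.96), psmd7 (0.95), psmc1 (0.95) and psmd12 (0.94), followed by zgc:86677 (now calua, 0.94).

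The array held further probes for the same families under other names, 17 in all, found through their RefSeq identifier or description after the values could be seen and so given as description. For zgc:77769 (arpc2), which forms the core of the complex with arpc4, the day 5 log2 ratios were 0.63, 0.58 and 0.72 in TCDD arrays of experiments 1 to 3, with an outlier spot in experiment 4, against 0.23, 0.16, 0.34 and 0.11 in vehicle control arrays. Here the TCDD array of experiment 2 was not near the control, unlike in most members. Its log2 fold changes were 0.07, 0.18, 0.27, 0.25 and 0.43 on days 1 to 5. It was called higher on days 3, 4 and 5, with the groups apart on each of these days. The 2 probes of zgc:86828 (arpc3) had 0.19 and 0.34 on day 5, and those of zgc:63719 (actr2a, the Arp2 gene) had 0.30 and 0.27. The Arp3 gene actr3 had 0.18, 0.35, 0.30, 0.40 and 0.14 on days 1 to 5. It was called higher on day 4 only, while its groups did not overlap on days 2 and 3. Of the probes without a gene name, 2 described as Arp2/3 subunit 4, the arpc4 protein, had 0.18 ± 0.11 and 0.38 ± 0.33 (SE) on day 5, and neither was called. Probes described as Arp2 (0.09), Arp3-like (0.03) and ARPC5-like (0.14) were not called on day 5 either.

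Tropomyosins other than the tpm3 member did not share a direction on day 5. A second tpm3 transcript on the array, zgc:77592, had TCDD values of 4.86, 4.83, 5.98 and 4.62, against 4.88, 4.79, 4.97 and 5.06 in vehicle control embryos, so the groups overlapped, at a log2 fold change of 0.14. The log2 fold change on day 5 was -0.32 for zgc:55951 (tpm1), -0.002 for zgc:86810 (tpm2) and 0.22 for zgc:63734 (tpm4b). The 2 probes of zgc:63909 (tpm4a) disagreed, at 0.55 and 0.0045. The probe with 0.55 had outlier spots left out on 7 arrays, but its day 5 groups were complete (n = 4 each). It was called higher, with TCDD above in 4 of 4 experiments and the groups overlapping, while zgc:55951 was called lower.

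**Figure D4:**
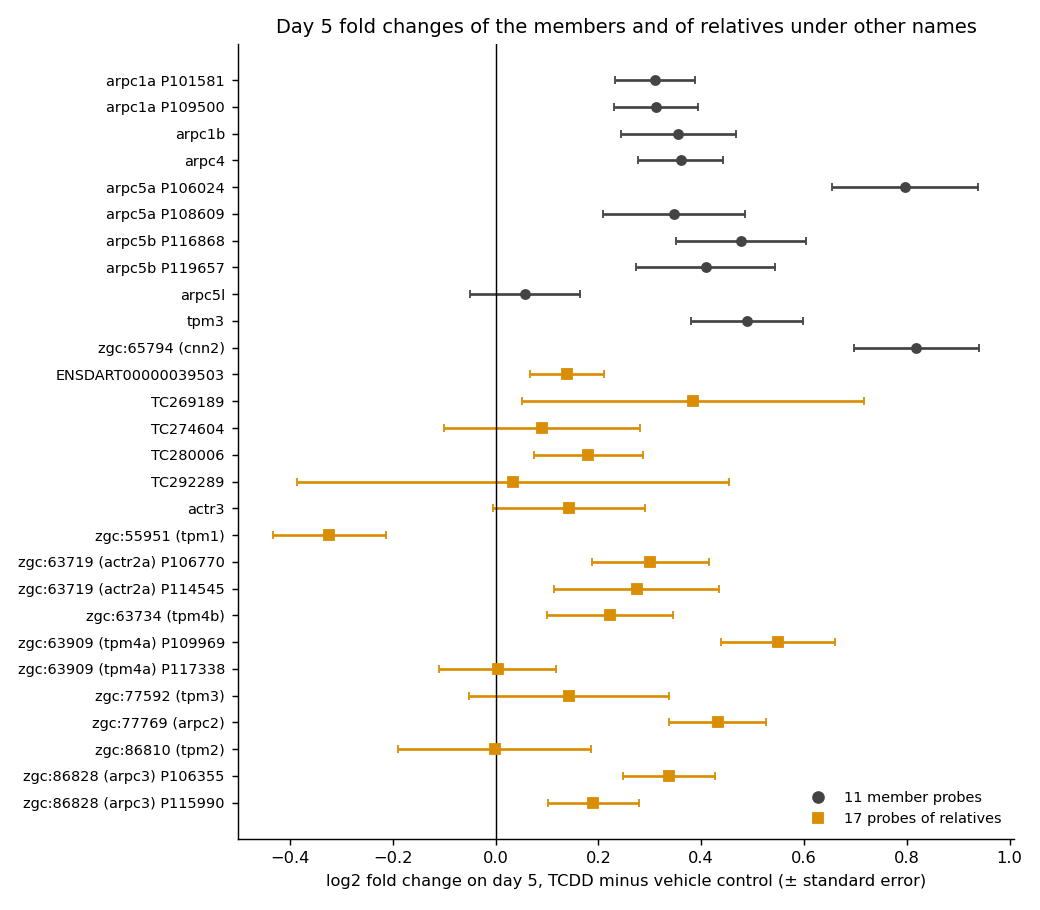
Log2 fold change on day 5, TCDD minus vehicle control (horizontal axis), with its standard error, for the 11 member probes (dark circles) and the 17 probes of related genes (orange squares), probe numbers being added where a gene has 2. The members range from 0.06 to 0.82, the related probes from -0.32 to 0.55.

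The wider actin machinery was read from lists of 49 probes for 33 genes. These lists, and those of cell types below, were chosen with earlier results of these data known. Their counts and p-values are therefore description and no independent support. On day 5, 12 were called higher and 1 lower, with a median log2 fold change of 0.14, beside -0.001 for all probes, of which 5.01% were called higher. On days 1, 2, 3 and 4, 0, 3, 3 and 3 were called higher and 0, 0, 1 and 1 lower, beside 0.717%, 3.3%, 6.52% and 3.38% of all probes called in either direction. Of the 4 probes of bactin1, a cytoplasmic beta-actin, 3 were higher under TCDD than in the control on day 5, by 0.41, 0.48 and 0.51. These were the 3 calls in the list of 12 actin probes.

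Among 7 probes for monomer binding and turnover 2 were called higher under TCDD on day 5. For cotl1, coactosin-like protein, the difference from the control was 0.91 ± 0.13 (SE, adjusted p = 4.37e-05). For cap1, which recycles actin monomers, it was 0.42 ± 0.08 (adjusted p = 0.00118). The cap1 probe was also called higher on days 2, 3 and 4, at 0.30, 0.33 and 0.35. The transgelin tagln2, a small protein of the calponin family, was higher under TCDD on day 5 by 0.86 ± 0.13 (adjusted p = 7.15e-05). Its TCDD arrays had 1.66, 1.00, 1.63 and 1.46 on day 5, against 0.61, 0.52, 0.68 and 0.47 in vehicle control arrays, again lowest under TCDD in experiment 2.

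In the list of 5 bundling proteins lcp1, L-plastin, was higher under TCDD on day 5 by 0.74 ± 0.16 (adjusted p = 0.00247). For coro1c, a coronin, the difference was 0.36 ± 0.12 (adjusted p = 0.058). In the list of 6 capping and severing probes, 1 of 3 for gsn, gelsolin, was higher by 0.32 ± 0.07 (adjusted p = 0.00298). Among 3 probes for contraction the myosin light chain myl9l was higher by 0.50 ± 0.11 (adjusted p = 0.00287). The only call downward was svil, supervillin, which was lower under TCDD by 0.32 ± 0.07 (adjusted p = 0.00562). None of the 7 probes for nucleation promoting factors, which switch on Arp2/3, was called on day 5 (median 0.01, with 1 at an unadjusted p under 0.05). The same held for the 4 tpma probes, the skeletal muscle tropomyosin (median 0.03, with 0 under 0.05). Over all probes 3879 of 21493 were under 0.05.

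Some markers of cell types that contain these proteins were called on day 5, where 5.01% of all probes were called higher and 910 of 21493 lower. Whether any list exceeded these shares was not tested. Among 9 leukocyte probes 2 were called higher, mpx, the peroxidase of neutrophils, by 3.70 ± 0.58 (SE) and lcp1, and the median was -0.09. The mean log2 ratio of the leukocyte list was 3.01 to 4.06 over the TCDD arrays and 2.72 to 3.29 over the vehicle control arrays. Among 15 epidermis probes 5 were called higher and 1 lower, with a median of 0.10 and list means of 2.58 to 3.10 in TCDD and 2.58 to 2.96 in vehicle control arrays. The calls upward were krt18, cldne and cldni, and 10 of the 15 epidermis probes stood above 0. Of the 2 smooth muscle probes smtnl was higher under TCDD by 0.86 ± 0.15, and acta2, smooth muscle actin, stood at -0.29 ± 0.26. The list means were 2.35 to 2.85 in TCDD and 2.22 to 2.41 in vehicle control arrays. None of the 20 skeletal muscle probes, 5 endothelium probes and 6 red blood cell probes was called. None of them reached an unadjusted p of 0.05 either, where 3879 of 21493 did over all probes. In the other lists 2 leukocyte, 6 epidermis, 1 smooth muscle, 1 cardiac and 4 matrix mesenchyme probes did. Of 7 cardiac probes 1 was called lower (vmhc, a ventricular myosin, at -1.73 ± 0.58, list median -0.51), and of 11 matrix mesenchyme probes 1 was called lower (col1a1, a fibrillar collagen, list median -0.12). The part of these cell types in the differences of calponin 2, tpm3 and Arp2/3 was not tested.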

How the data were processed

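The deposited scanner files of 39 two-colour arrays were used, one per sample. Per the file headers and labels, the authors scanned them with Agilent Feature Extraction 8.1.1, and the deposited log10 ratio of each spot is the background-corrected, dye-normalized red embryo signal over the green Zf4 signal. The deposited processed intensity and mean intensity of each channel were used for alternatives only. The deposited whole-series table held the same log10 ratios (880425 of 880425 values equal within 1e-06) and was not used further. Ratios were turned to log2, the 1080 control spots were removed and outlier spots were left out (10 to 107 per array). Probes of the same gene were kept apart.

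One mean per group was fitted over all arrays with limma 3.58.1 in R 4.3.3 (lmFit, eBayes), with no block, and a probe was called at an unadjusted p under 0.01, following the study's threshold; adjusted p-values are Benjamini-Hochberg over all probes. The fit was tried on simulated data with the same spread in every group and no effect of experiment. That cannot show how it behaves under the wider spread of the day 5 TCDD arrays. Gene names come from the files, and current symbols from RefSeq (GRCz12tu), which matched 11 of 11 member probes. The genes and lists were chosen with earlier results of these data known. Named genes were every member, the 5 genes most alike to each of zgc:65794, tpm3 and arpc4 by Pearson r, and list genes past the threshold, except for 1 list that is not reported here.

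Replicate numbers mark 4 separate experiments. Same-numbered TCDD and control arrays deviated together, with a median r of 0.23 (-0.14 to 0.40, 19 pairs), against -0.07 for different numbers (57 pairs). Scan days gave 3 batches of 4, 24 and 11 arrays, and the first held no day 5 array. Alternatives were normexp with an offset of 50 and loess, median centring, the embryo channel over its 75th percentile, a filter on dim probes, blocks, fewer groups, an ordinary analysis of variance and each experiment left out. The number of arrays limits the precision.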

Additional observations from a re-analysis of the deposited data

Results flagged for a closer look

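In vehicle control embryos of day 1, arpc1b had a log2 ratio of -2.36 in experiment 3, apart from the other 3 arrays at -2.05 to -2.0. The day 1 TCDD array of experiment 3 was also the lowest of its group, at -2.27 against -2.05 to -1.88. In vehicle control embryos of day 2, arpc5l had 1.05 in experiment 1, apart from the other 3 at 1.28 to 1.31. Both control values were found because the gap to the nearest array, over the whole range of the group, exceeded Dixon's critical value. The 11 probes gave 99 groups of 4 arrays, 2 of which stood out in this way, and chance gives about 1 in 20.

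For zgc:65794 every TCDD array was above its control on day 5 (log2 fold change 0.82). Every one was below it on day 3 (log2 fold change -0.14). The difference between the days was 0.95 and was not tested. It rests mostly on day 5, for which the gene was chosen, so it is description. On day 3 the groups overlapped, and in experiment 4 the TCDD and control arrays were nearly equal (-1.3809 and -1.3745).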

How the results depend on the processing

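The day 5 log2 fold changes of zgc:65794 and tpm3 stayed within the replicate SD under all 12 alternatives and within each scan day, at 0.64 to 1.03 and 0.36 to 0.64, and the range on leaving out an experiment was 0.67 to 1.03 and 0.40 to 0.64. That of arpc4 was 0.32 to 0.43 on leaving out an experiment, 0.19 within one scan day and 0.53 within another, an alternative added after seeing the data. The scan days held different TCDD experiments, and 1 of them held a single day 5 control array. The median of the 9 Arp2/3 probes was 0.29 to 0.49 without an experiment. The count of 9 members called higher on day 5 became 5 in the embryo channel alone and 4 to 10 without an experiment. It became 1 when only the groups compared were fitted. That fit has fewer arrays and takes the spread from day 5 alone. There the SD of zgc:65794 was 0.43 under TCDD, against 0.06 to 0.20 in the other groups. Which of these made the count fall was not tested. Over all probes, 1077 were called higher, with 938 in the embryo channel, 608 with only the groups compared, 616 to 1022 without an experiment and 1342 with the block. With the replicate block the members' count was 10, which adds A_15_P108609 of arpc5a, and no other count moved by over 1.5 times under the block. No member was called on days 1 to 4 under any alternative run.

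In vehicle control embryos the 5 Arp2/3 probes called lower on day 5 than on day 1 numbered 5 under every alternative. The 2 called higher became 1 in the embryo channel alone, 1 with only the groups compared, 4 with normexp and loess, and 1 to 2 without an experiment. The 4 called lower from day 4 to day 5 became 8 with only the groups compared, and 4 to 5 without an experiment. All these counts with day 5 control arrays are description, since the genes were chosen on those arrays. The 4 called higher on day 2 were 3 to 4 without an experiment. The day 5 against day 1 difference of arpc5b A_15_P119657, 0.20, was -0.033 in the embryo channel alone. Where not stated above, the cause was not tested.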
